A study of Mus musculus with 3 samples.

Results

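Signals of 10 genes encoding transcription factors of cartilage cells were described in sorted cells of mouse long bone: Sox9, Sox5, Sox6, Mef2c, Runx3, Trps1, Nkx3-2, Foxa2, Foxa3 and Barx2. They were chosen by name, and every probe set (a group of short probes read together as 1 measurement) carrying 1 of these symbols as its only symbol was taken. That gave 29 probe sets of 45037 on the array and 10 genes of 18193. The cells came from C57BL/6 mice, whose femurs and tibiae were broken up and digested with collagenase to free cells described as endosteal, that is, from the inner bone surface. All populations shared the removal of CD45+, CD31+ and Ter119+ cells, which takes out blood, endothelial and erythroid cells. The remaining cells were sorted by both surface proteins into PDGFRα+Sca-1+ cells (P+S+), PDGFRα+Sca-1− cells (P+S−) and PDGFRα−Sca-1− cells (P−S−), with 1 array each. PDGFRα, which binds platelet-derived growth factor, is carried by many mesenchymal cells, and the surface protein Sca-1 is used in mice to enrich for their progenitors. How many animals were used, how old they were and whether they were pooled is not stated in the labels. Since each population had a single array, no test was possible, and each difference below compares arrays and has no error over animals.

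SOX9 is the master regulator of the cartilage lineage. It binds DNA through an HMG box and acts with SOX5 and SOX6, which carry no activation domain of their own, at enhancers of cartilage matrix genes. As growth plate chondrocytes stop dividing and enlarge (hypertrophy), MEF2C and the RUNX factors switch on genes such as Col10a1, and FOXA2 and FOXA3 act in the same late stage. NKX3-2 is a homeobox repressor that holds back maturation, TRPS1 is a GATA-type zinc finger repressor, and BARX2 is a homeobox factor of early cartilage condensations.

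Signals are array brightness on a linear scale. A floor of 93.2, the mean of the array medians, stood in for detection calls, and a gene counted as higher or lower once its signals differed at least 2-fold. Where 1 array of a comparison lay under the floor, the ratio is a bound, written "at least". Each gene took its brightest probe set, and the other probe sets are given beside it. Probe sets of a gene read the same RNA on the same array, so they show agreement between probes and not between animals. Levels of different probe sets were not compared with each other.

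**Figure D1:**
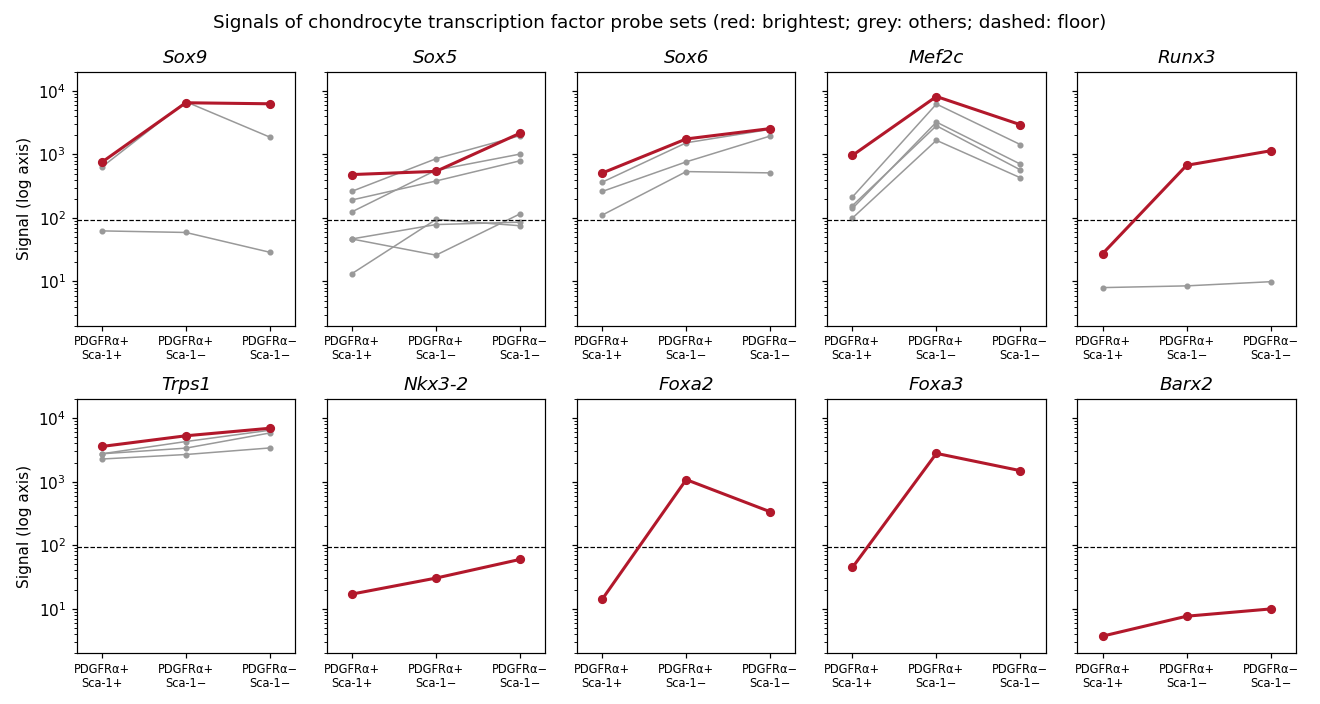
Signal of every probe set of the 10 genes (vertical log axis) in P+S+, P+S− and P−S− cells, with the brightest probe set of each gene in red, the others in grey and the floor of 93.2 as a dashed line. Mef2c and Foxa2 peaked in P+S− cells, the brightest Sox5 and Sox6 probe sets peaked in P−S− cells, and Nkx3-2 and Barx2 stayed under the floor on all 3 arrays.

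Of the 10 genes, 0 had their highest signal in P+S+ cells, where 42.1% of the 12211 genes above the floor on at least 1 array peaked. Sox9, Mef2c, Foxa2 and Foxa3 were highest in P+S− cells (27.3% of all genes), and Sox5, Sox6, Runx3 and Trps1 in P−S− cells (30.6% of all genes). Nkx3-2 and Barx2 were not compared. In P+S+ cells 6 of the 10, namely Sox9, Sox6, Mef2c, Runx3, Foxa2 and Foxa3, were at least 2-fold lower than on both other arrays, against 6.96% of all genes, and 0 were at least 2-fold higher than on both others, against 10.6% of all genes. Mef2c and Foxa2 were at least 2-fold higher in P+S− cells than on both others, as were 2.46% of all genes. Sox5 was at least 2-fold higher in P−S− cells than on both others, as were 3.19% of all genes. Between the Sca-1− populations, 5 of the 8 factors compared were within 2-fold, so for these the place of the highest signal is a small difference. In RNA from sorted populations, fewer cells of a type and less RNA per cell cannot be told apart.

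The sort and the arrays were read first. Pdgfra had a signal of 12846 in P+S+ cells, 2420 in P+S− cells and 586 in P−S− cells. Ly6a, which encodes Sca-1, is not analysed here. Ptprc (CD45) and Pecam1 (CD31) stayed under the floor, with highest signals of 74.1 and 10.7. The 3' control probe set of Actb was brighter than the 5' one by a ratio of 4.65 in P+S+ cells, 2.63 in P+S− cells and 2.99 in P−S− cells. The 3' end was thus more favoured on the P+S+ array, on which all 8 factors compared were lowest by their brightest probe sets. Its part in those differences was not tested.

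Markers of other cell types that use some of these factors were also read, as signals summed over each list in P+S+, P+S− and P−S− cells. The sum over 6 endothelial genes was 1113, 236 and 133. Tek (888 in P+S+ cells) made up most of the P+S+ sum, and Cdh5, Tie1 and Emcn were under the floor on all 3 arrays. Kdr read 155, 110 and 67.1, the last under the floor. For 6 muscle genes the sum was 353, 972 and 706, with Myog, Ckm and Actn2 under the floor throughout. Des was above the floor on all 3 arrays, at 113, 166 and 131, and Myod1 only in P−S− cells, at 94.9. Acta1 made up most of the P+S− and P−S− sums, at 90.0 (under the floor), 638 and 457. It was at least 6.84-fold lower in P+S+ than in P+S− cells, and the part of muscle cells in the differences below was not tested. For 5 lymphoid genes the sum was 515, 440 and 316, with Cd3e, Nkg7, Cd79a and Ptprc under the floor throughout. Cd8a made up most of each sum, at 305, 244 and 210. For 6 endoderm and epithelial genes the sum was 984, 2440 and 1189, highest on the array where Foxa2 and Foxa3 were highest. Epcam supplied most of it, at 909, 1837 and 927, while Alb, Ttr and Cdh1 were under the floor on all 3 arrays. Krt8 and Krt18 were above the floor only in P+S− cells, at 214 and 200. For 6 macrophage and osteoclast genes the sum was 12079, 6923 and 6767, most of it from Ctsk at 10800, 4145 and 5077. Cd14 went the other way, at 367, 1960 and 1011. Between P+S+ and P+S− cells, 1 of the 6 was at least 2-fold higher (Ctsk), 1 lower (Cd14) and 4 within 2-fold. For 6 neutrophil precursor genes the sum was 2398, 2801 and 528. For 4 erythroid genes the sum was 1136, 1903 and 6957, most of the last from the transferrin receptor Tfrc. Hemgn read 53.8 (under the floor), 138 and 360, while Hba-a1 and Alas2 were under the floor on all 3 arrays. The neutrophil precursor and erythroid sums thus differed between P+S− and P−S− cells, as did the endoderm and epithelial sum, and the part of these cells in the differences between P+S− and P−S− cells below was not tested.

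Of the SOX trio, Sox9 and Sox6 were at least 2-fold lower in P+S+ than in P+S− cells by their brightest probe sets, and Sox5 was within 2-fold. Sox9, by its brightest probe set 1424950_at, had a signal of 754 in P+S+ cells, 6522 in P+S− cells and 6285 in P−S− cells. By 1451538_at the signals were 632, 6776 and 1877 in the same populations. Both probe sets put the P+S+ signal below both Sca-1− signals, but they disagreed on the Sca-1− populations. The log2 ratio of P+S− over P−S− cells was 0.05 by the brighter and 1.85 by the other, a gap of 1.80 where the scatter between probe sets of a gene had an SD of 0.37 over 4548 genes. The annotation draws both from the same sequence record, so Sox9 has no settled ratio between the Sca-1− populations. The remaining Sox9 probe set, 1433889_at, was under the floor on all 3 arrays, at 62.5, 59.1 and 28.8. Against P+S− cells, Sox9 was 8.65-fold lower in P+S+ cells by the brightest probe set and 10.7-fold lower by 1451538_at. The 8.65-fold difference was at place 124 from the lowest of 10033 ratios measured on both arrays.

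Sox5 and Sox6, closely related genes that often act as a pair, were highest in P−S− cells. The brightest Sox5 probe set, 1455535_at, read 482 in P+S+ cells, 542 in P+S− cells and 2161 in P−S− cells. By that probe set Sox5 was 3.99-fold lower in P+S− than in P−S− cells, at place 76 from the lowest of 10393 measured ratios, and within 2-fold between the PDGFRα+ populations. The next brightest, 1423500_a_at, read 263, 856 and 1975 in the same order of populations, which placed the P+S− signal between the others. Its log2 ratio was −1.70 for P+S+ over P+S− cells, against −0.17 by the brightest. Of 7 Sox5 probe sets, 3 were at least 2-fold lower in P+S− than in P−S− cells, 3 were within 2-fold and 1 was not compared. Those within 2-fold included 1440827_x_at at a log2 ratio of −0.84, and a pair with bounds near the floor. With the mean over its probe sets in place of the brightest, Sox5 was within 2-fold between these populations, at a log2 ratio of −0.77.

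Sox6 was read by 4 probe sets, all above the floor on all 3 arrays. The brightest, 1427677_a_at, had signals of 510 in P+S+ cells, 1755 in P+S− cells and 2555 in P−S− cells. Across the 4, the log2 ratio of P+S+ over P+S− cells ran from −2.28 to −1.55, so each placed P+S+ cells more than 2-fold lower. The log2 ratio of P+S− over P−S− cells ran from −1.35 to 0.07, and 1 of the 4 passed 2-fold. Sox6 and Sox5 were each at least 4-fold lower in P+S+ than in P−S− cells by their brightest probe sets, by 5.02-fold and 4.48-fold.

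Mef2c, a MADS-box factor that drives hypertrophy, had the same order of populations by all 5 of its probe sets. The brightest, 1424852_at, read 966 in P+S+ cells, 8184 in P+S− cells and 2943 in P−S− cells. The second, 1421027_a_at, read 214, 6225 and 1430 in the same populations. Each of the 5 peaked in P+S− cells and was lowest in P+S+ cells. For P+S− over P−S− cells, their log2 ratios ran from 1.48 to 2.31, and the brightest gave a 2.78-fold difference, at place 211 from the highest of 10393. For P+S+ over P+S− cells they ran from −4.86 to −3.08, and the brightest was 8.47-fold lower, at place 127 from the lowest of 10033. The brightest probe set gave the smallest difference of the 5 in each of these comparisons.

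Runx3, a RUNX factor that shares roles in chondrocyte maturation with Runx2, was highest in P−S− cells and not, as Mef2c was, in P+S− cells. Its probe set 1440275_at read 27.4 in P+S+ cells, 675 in P+S− cells and 1143 in P−S− cells. Runx3 was therefore at least 7.24-fold lower in P+S+ than in P+S− cells and at least 12.3-fold lower than in P−S− cells. Between the Sca-1− populations it was within 2-fold, with a log2 ratio of −0.76 for P+S− over P−S− cells. The other Runx3 probe set, 1421467_at, read 7.99, 8.51 and 9.90 and measured nothing above the floor, so the Runx3 values rest on 1 probe set. Runx2 is not analysed here.

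The forkhead genes Foxa2 and Foxa3, best known from liver and endoderm, were each read by 1 probe set and were under the floor in P+S+ cells. Foxa2 had signals of 14.1 in P+S+ cells, 1079 in P+S− cells and 336 in P−S− cells. Foxa2 was 3.21-fold higher in P+S− than in P−S− cells, at place 147 from the highest of 10393 ratios. Foxa3 had signals of 44.6, 2794 and 1492 in the same order. The order of the populations was the same for both genes, but the Foxa3 ratio between the Sca-1− populations was 1.87-fold, just inside the 2-fold threshold. Against P+S− cells, Foxa2 was at least 11.6-fold and Foxa3 at least 30.0-fold lower in P+S+ cells. The relative Foxa1 read 62.7 in P+S+ cells, 216 in P+S− cells and 125 in P−S− cells, the same order at signals nearer the floor.

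Trps1 was above the floor on all 3 arrays by all 4 of its probe sets. The brightest, 1449530_at, read 3590 in P+S+ cells, 5288 in P+S− cells and 6951 in P−S− cells. All 4 gave the same order of populations, with log2 ratios of −0.64 to −0.24 for P+S+ over P+S− cells and −0.79 to −0.34 for P+S− over P−S− cells. For P+S+ over P−S− cells they ran from −1.23 to −0.58, so 2 of the 4 passed 2-fold and the brightest, at 1.94-fold lower, did not. Nkx3-2 read 17.0, 30.3 and 59.7, and Barx2 3.70, 7.61 and 9.90, in P+S+, P+S− and P−S− cells. Each has a single probe set, and neither was compared. A low signal from a single probe set does not tell an absent transcript from a poor probe set.

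**Figure D2:**
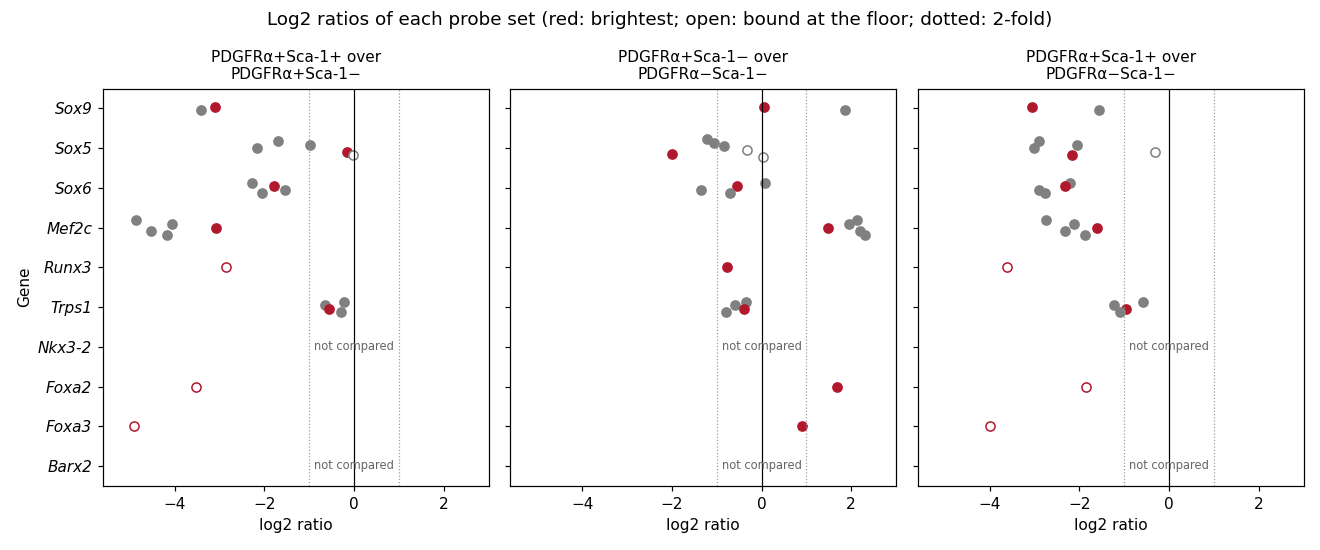
Log2 ratio of signals (horizontal axis) of every probe set not under the floor on both arrays compared, by gene, in the 3 comparisons, with the brightest probe set in red and bounds at the floor as open circles. All compared probe sets of Sox9, Sox6, Mef2c, Runx3, Foxa2 and Foxa3 lie left of −1 for P+S+ over P+S− cells, while the 2 Sox9 probe sets part at 0.05 and 1.85 for P+S− over P−S− cells.

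The comparison of P+S+ with P+S− cells asks what differs with Sca-1 among PDGFRα+ cells. Pdgfra itself also differed between them, at 12846 in P+S+ and 2420 in P+S− cells, so the comparison does not isolate Sca-1. Of the 10 factors, 6 were at least 2-fold lower in P+S+ cells (Sox9, Sox6, Mef2c, Runx3, Foxa2 and Foxa3), 0 were higher, Sox5 and Trps1 were within 2-fold, and 2 were not compared. Over all 11855 genes compared, 11.3% were at least 2-fold lower, 14.9% at least 2-fold higher and 26.2% at least 2-fold apart in either direction. The median log2 ratio over the 8 factors compared was −2.97, with bounds entered at the floor, against 0.07 over all genes. Of the 29 probe sets, 16 were at least 2-fold lower, 7 within 2-fold and 6 not compared.

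The comparison of P+S− with P−S− cells asks what differs with PDGFRα among Sca-1− cells. Mef2c and Foxa2 were at least 2-fold higher in P+S− cells, Sox5 was lower, 5 factors were within 2-fold and 2 were not compared. Over all 11675 genes, 4.82% were at least 2-fold higher, 5.63% lower and 10.4% apart in either direction. The median over the 8 factors compared was −0.17, against −0.03 over all genes, since the factors went both ways. With the threshold at 1.5-fold the count of factors apart was 5, Foxa3 being added to those higher and Runx3 to those lower.

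The comparison of P+S+ with P−S− cells spans both steps of the sort. Of the 10 factors 7 were at least 2-fold lower in P+S+ cells, 0 were higher, Trps1 was within 2-fold and 2 were not compared. With the floor at the 67th percentile the count was 6, since Foxa2 was then within 2-fold at a log2 ratio of −0.39. Over all 11843 genes, 12.2% were at least 2-fold lower, 14.5% at least 2-fold higher and 26.6% apart. The median over the 8 factors compared was −2.25, against 0.03 over all genes. The comparisons share arrays and are not independent of each other.

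The genes that these factors are known to act on were read beside them. Of 20 cartilage matrix genes, 18 were at least 2-fold lower in P+S+ than in P+S− cells, against 11.3% of all genes. Their median log2 ratio was −3.45. Matn1, a matrilin, was 163-fold lower, Col9a2 97.4-fold, Mia 72.4-fold and Snorc 47.6-fold, while Comp (log2 ratio −0.20) and Matn4 (−0.95) were within 2-fold. Between P+S− and P−S− cells 18 of the 20 were within 2-fold, with a median of −0.03, and 10.4% of all genes were at least 2-fold apart. Matn1 was 8.03-fold higher in P+S− cells and Ucma, a protein of early growth plate chondrocytes, 4.35-fold lower. Col2a1, a SOX9 target, read 4096 in P+S+ cells, 26563 in P+S− cells and 27518 in P−S− cells. Signals this bright lie near the top of the range of the arrays, where saturation can compress ratios.

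Hypertrophic cartilage genes differed between the Sca-1− populations. Of 13 listed, 10 had a usable probe set. All 10 were at least 2-fold lower in P+S+ than in P+S− cells, against 11.3% of all genes, with a median log2 ratio of −4.24. Against P−S− cells, 6 of the 10 were at least 2-fold higher in P+S− cells, 0 were lower and 4 were within 2-fold. The median was 1.46, and 4.82% of all genes were higher and 5.63% lower. Bmp6 was 5.70-fold, Col10a1 4.80-fold, Ihh 4.64-fold and Mmp13 3.70-fold higher, whereas the osteoblast factor Sp7 (log2 ratio 0.31) and the channel gene Panx3 (0.53) were within 2-fold. Col10a1, the collagen of hypertrophic cartilage, read 272, 24355 and 5071 in P+S+, P+S− and P−S− cells. Mef2c, Foxa2 and Foxa3 had the same order of populations as Col10a1. Both compared Sox9 probe sets also had that order, but by the brightest the Sca-1− signals were only 1.04-fold apart. By their brightest probe sets, Sox5, Sox6, Runx3 and Trps1 were instead highest in P−S− cells. Alpl, Ibsp, Mmp13 and Vegfa are also genes of osteoblasts or other cells, so the list does not mark chondrocytes alone. In P+S+ against P−S− cells, 19 of the 20 matrix genes and 9 of the 10 hypertrophic genes were at least 2-fold lower. Their medians were −4.04 and −3.65, and 12.2% of all genes were at least 2-fold lower.

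**Figure D3:**
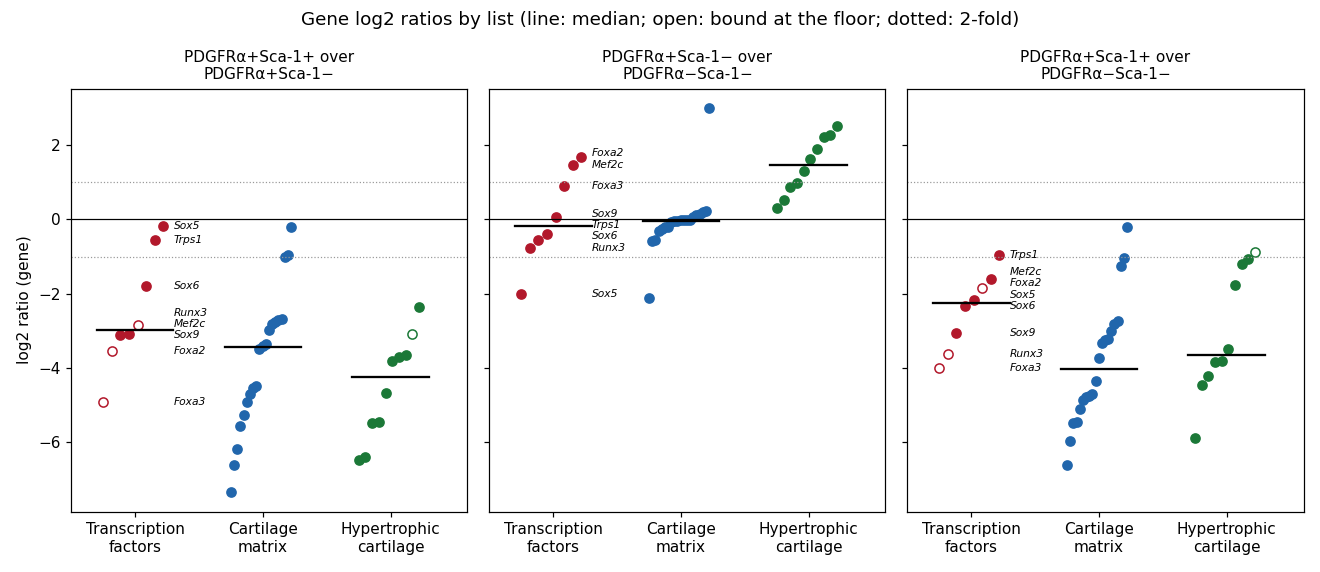
Log2 ratio of each gene (vertical axis) for the transcription factors compared, the cartilage matrix genes and the hypertrophic cartilage genes in the 3 comparisons, with the median as a line and bounds at the floor as open circles. For P+S− over P−S− cells the matrix genes have a median of −0.03, the hypertrophic genes a median of 1.46, and the factors run from Sox5, the lowest, to Foxa2 at 1.68.

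Partners and upstream signals of the factors went both ways. Of 13 compared, 4 were at least 2-fold higher and 3 lower in P+S+ than in P+S− cells, with a median log2 ratio of 0.20. The shares over all genes were 14.9% higher and 11.3% lower. Fgfr3, a receptor that restrains chondrocyte division, was 15.4-fold lower, at a log2 ratio of −3.95 against −1.59 by its other probe set. Wwp2, a ubiquitin ligase that binds SOX9, was 12.2-fold lower, although the 6 Wwp2 probe sets ran from −4.37 to −0.22 on the log2 scale. Arid5b, a chromatin cofactor of SOX9, went the other way at 5.02-fold higher, as did the hedgehog effector Gli2 at 2.70-fold, whose other probe set gave a log2 ratio of 0.38. Between P+S− and P−S− cells 1 of 13 was higher, 4 lower and the other 8 within 2-fold, and the median was −0.35. The shares over all genes were 4.82% higher and 5.63% lower. Gli2 was 3.51-fold, the hedgehog receptor gene Ptch1 2.98-fold, Gli1 at least 2.96-fold and Hdac4 2.49-fold lower in P+S− cells. The 2 Ptch1 probe sets compared gave log2 ratios of −1.58 and −0.53. HDAC4 represses MEF2C and RUNX2 in chondrocytes. Hdac4 read 564 in P+S+ cells, 247 in P+S− cells and 614 in P−S− cells. Log2 ratios of its 3 probe sets lay between −1.31 and −0.13 for P+S− over P−S− cells. A link between the Hdac4 and Mef2c signals was not tested. Against P−S− cells, 4 of 13 were lower in P+S+ cells and 1, Arid5b, was higher at 10.2-fold. The shares over all genes were 12.2% lower and 14.5% higher. Log2 ratios of the 4 Arid5b probe sets compared ran from −0.03 to 3.74.

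Relatives of the factors from the same gene families were read as well. Of 22 with a usable probe set, 9 were not compared between P+S+ and P+S− cells because both signals were under the floor. Among the rest, 10 were within 2-fold, 2 higher and 1 lower, against 14.9% higher and 11.3% lower over all genes. Barx1, a relative of Barx2 known from joint and stomach mesenchyme, was at least 6.69-fold higher in P+S+ than in P+S− cells. It read 623 in P+S+ cells, against 92.1 (under the floor) in P+S− cells and 171 in P−S− cells. Sox4, a factor of many progenitor cells, was 3.06-fold higher in P+S− than in P−S− cells and its relative Sox11 4.92-fold lower. Over the probe sets compared, 5 of 8 for Sox4 and 5 of 6 for Sox11, the log2 ratios were 0.40 to 1.85 and −2.30 to −0.49. Mef2a and Mef2d were within 2-fold in all 3 comparisons by their brightest probe sets, although other probe sets passed 2-fold in each. For P+S+ over P+S− cells the lowest log2 ratio was −1.30 for Mef2a and −2.83 for Mef2d, for P+S− over P−S− cells the highest was 1.07 and 1.15, and for P+S+ over P−S− cells the lowest was −1.11 and −1.68. Against P−S− cells, 3 of 13 relatives compared were higher in P+S+ cells and 2 lower, where 14.5% and 12.2% of all genes were.

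Genes with the most similar profile over the 3 arrays were found among 7325 other genes whose mean signal was 4 times the floor or more. Likeness was the largest difference on any array between the log2 signals, each gene centred on its own mean. Mef2c was closest to the cytokine gene Il17d (0.06), the hypoxia-induced lipid droplet gene Hilpda (0.10) and the nuclear RNA Neat1 (0.11). By its brightest probe set, Sox5 was closest to Stmn1, a microtubule regulator of dividing cells (0.06), Ddah1 (0.11) and Csf2 (0.15), and Sox9 to the glycosyltransferase gene Mgat4a (0.01), Chac1 and Mboat2. Sox6 was closest to Map2k3os, Prkch and Mall, and Trps1 to Sec23b, Scd2 and Slc35e1. No closest genes are given for Runx3, Foxa2 and Foxa3, because their P+S+ signals were under the floor and the floor would set the distance. With 3 arrays many genes share a profile, and these names describe the arrays only.

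Promoter sequences are shown for 4 of the factors, because they represent the contrasting profiles: Sox5 highest in P−S− cells, Mef2c and Foxa3 highest in P+S− cells, and Runx3 under the floor in P+S+ cells. They are from RefSeq on GRCm38.p6 and run from 250 bases before to 50 after an annotated gene start, 5′ to 3′ on the gene's strand. The windows lie at chr6:143947057-143947356 on the minus strand (Sox5), chr13:83503784-83504083 on the plus strand (Mef2c, 1 of 3 starts), chr4:135120395-135120694 on the plus strand (Runx3, 1 of 2 starts) and chr7:19023490-19023789 on the minus strand (Foxa3). Capitals mark matches to short motifs: a SOX core (ACAATG or ACAAAG), a forkhead motif (TGTTTAC or TGTTTGC) and a RUNX motif (TGTGGT), each on either strand, and a TATA box (TATAAA) on the gene's strand.
Sox5: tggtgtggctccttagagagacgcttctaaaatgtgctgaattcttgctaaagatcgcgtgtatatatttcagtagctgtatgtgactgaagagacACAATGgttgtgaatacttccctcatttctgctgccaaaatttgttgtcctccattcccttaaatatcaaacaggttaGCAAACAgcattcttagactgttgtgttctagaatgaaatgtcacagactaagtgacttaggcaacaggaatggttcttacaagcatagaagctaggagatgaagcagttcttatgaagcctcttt
Mef2c: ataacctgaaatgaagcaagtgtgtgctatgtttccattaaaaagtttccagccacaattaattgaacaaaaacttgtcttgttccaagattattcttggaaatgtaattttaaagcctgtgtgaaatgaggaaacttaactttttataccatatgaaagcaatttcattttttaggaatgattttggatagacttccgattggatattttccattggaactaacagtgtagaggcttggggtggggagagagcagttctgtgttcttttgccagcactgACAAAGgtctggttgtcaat
Runx3: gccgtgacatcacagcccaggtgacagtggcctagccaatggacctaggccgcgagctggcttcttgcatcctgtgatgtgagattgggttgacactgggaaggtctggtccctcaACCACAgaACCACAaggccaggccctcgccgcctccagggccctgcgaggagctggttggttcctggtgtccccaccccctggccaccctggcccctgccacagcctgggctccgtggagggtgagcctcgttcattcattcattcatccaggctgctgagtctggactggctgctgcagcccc
Foxa3: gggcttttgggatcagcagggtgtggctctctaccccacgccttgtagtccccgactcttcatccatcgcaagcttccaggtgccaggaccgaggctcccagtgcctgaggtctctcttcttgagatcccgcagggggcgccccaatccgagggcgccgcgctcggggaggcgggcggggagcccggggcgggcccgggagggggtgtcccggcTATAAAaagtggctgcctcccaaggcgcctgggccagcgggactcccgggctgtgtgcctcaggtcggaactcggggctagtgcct

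The Sox5 window held a SOX core and a forkhead motif, the Mef2c window a SOX core, the Runx3 window a pair of RUNX motifs and the Foxa3 window a TATA box. The other Runx3 window held none of these motifs, and of the other Mef2c windows 1 held a SOX core and 1 held none. No matches overlapped in these 4 windows. Of all 32851 promoter windows, 28.6% held the SOX core, 8.48% the forkhead motif, 16.8% the RUNX motif and 8.32% the TATA box, so the SOX core is common by its letters alone. The table held 17 windows for 7 of the 10 factors, and 9 of the 17 had a SOX core, 1 a forkhead motif, 3 a RUNX motif and 2 a TATA box. Several windows belong to the same gene, since Sox6 alone has 6. A match is a run of letters and not a measured binding site, and the arrays do not tell which start was used.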

How the data were processed

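Affymetrix arrays were hybridised with biotin-labelled RNA from the 3 populations, 1 array each. The deposited values are intensities on a linear scale, computed with MAS5 per the submitters' processing notes; its version and detection calls are not stated there. Each array had a trimmed mean of 500 in the deposited table.

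After 64 control probe sets were set aside, arrays were scaled to a common 2% trimmed mean over 45037 probe sets, signals under the floor of 93.2 were raised to it, and log2 was taken (Python 3.11.15, numpy 2.4.6, pandas 2.3.3). Names came from the platform annotation: 34945 probe sets had 1 symbol, 932 several and 9160 none. Of the first, 34741 matched RefSeq by gene number. Each gene took its brightest probe set. Counting was tested on simulated data. No test between populations was possible with 1 array each, so 1 array each limits the precision of all values. Genes were named by a fixed rule: the 10 factors with every probe set, up to 4 list genes with the largest ratios and up to 2 others per list and comparison, and the 3 genes closest in profile (not given where a factor was under the floor on an array). Singly named genes beyond it (Col2a1, Foxa1, Mef2a, Mef2d and single markers) were chosen after their values were seen. The factors and lists were chosen with earlier results of these data known. The alternatives changed the floor, the value per gene, the scaling and the threshold.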

Additional observations from a re-analysis of the deposited data

How the results depend on the processing

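The counts of factors at least 2-fold apart stayed within 1.5 times of 6, 3 and 7 (P+S+ over P+S−, P+S− over P−S−, P+S+ over P−S−) under every alternative run, with 1 exception. At a 1.5-fold threshold the count for P+S− over P−S− was 5, because a lower threshold admits smaller ratios. For a count of 3 this rule is loose, since it passes both 2 and 4. The P+S− over P−S− count was 2 with the mean over probe sets, where Sox5 was lost, and 2 at a 3-fold threshold. It was 4 with the second brightest probe set, where Sox9 was added. Neither scaling to a common median nor quantile normalization moved any of 24 log2 ratios by as much as the scatter between probe sets, and no ratio of 2-fold or more reversed under the alternatives run. The mean over probe sets moved 11 of 24 (Sox9, Mef2c and Runx3 in all comparisons and Sox5 in 2), and the second brightest probe set 8 of 21. Both totals include the values of Foxa2 and Foxa3, which have 1 probe set each and could not move. The share moved is therefore larger among the other factors. With the mean, Sox5 was within 2-fold at −0.77 for P+S− over P−S−. With the second brightest probe set Sox9 had a log2 ratio of 1.85 for P+S− over P−S− in place of 0.05. Bounds follow the floor: with the floor at the 67th percentile, Foxa2 lost its call for P+S+ over P−S−, at a log2 ratio of −0.39 in place of −1.85. No paired analysis was possible because each population has 1 array. Saturation, which was not measured, could limit ratios of the brightest matrix genes, and the floor limits those of Runx3, Foxa2 and Foxa3.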
